A study of Mus musculus with 4 samples.

Results

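The Slc25 genes encode the mitochondrial carriers, and 47 of the 35976 gene symbols in the files belong to the family by name (Slc25a followed by a number). They were read in DP thymocytes, developing T cells that are double-positive for the coreceptors CD4 and CD8a. Cells were sorted from mouse thymus as CD24+, TCRb-, CD4+ and CD8a+, and RNA was measured by bulk sequencing. Control mice (Cxxc1 +/+ :Lck-cre) and knockout mice (Cxxc1 F/F :Lck-cre, here KO) both carried the Lck-cre transgene, in which the T-lineage Lck promoter drives the recombinase, and differed in the floxed Cxxc1 alleles. Each genotype had 2 libraries, here control 1, control 2, KO 1 and KO 2, and the labels give no age, sex or animal of origin. Separate mice are not stated as the source of the libraries, so every p-value here reflects the spread among these 4 samples alone, and that spread may be technical. Double-negative thymocytes, which the design also names, were not analysed here.

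Mitochondrial carriers are small proteins of the inner mitochondrial membrane, most of them built from repeats of the same membrane unit, that exchange nucleotides, phosphate, carboxylates, amino acids and cofactors between matrix and cytosol. They let the matrix feed on cytosolic substrates and deliver ATP, citrate and aspartate outwards. In thymocytes, which shift between proliferating and quiescent states around the DP stage, such transport connects mitochondrial metabolism with growth. The protein made from Cxxc1 recognises CpG that is not methylated and is a subunit of SETD1 histone methyltransferase complexes.

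Sequence before the gene start is shown for 4 carriers because the Cxxc1 protein binds CpG, and because Myc RNA was higher in the KO and the Myc protein binds the E-box CACGTG. RefSeq windows (GRCm38.p6, 250 bases before to 50 after the start) matched 36 of the 47 members, with 46 windows since some genes have several starts. For Slc25a5, the carrier with the highest level, and Slc25a17, the one with the largest positive difference between genotypes, CpG dinucleotides are in capitals. The stretches hold no exon annotated in GENCODE M21.
Slc25a5, chrX:36795347-36795596, plus strand: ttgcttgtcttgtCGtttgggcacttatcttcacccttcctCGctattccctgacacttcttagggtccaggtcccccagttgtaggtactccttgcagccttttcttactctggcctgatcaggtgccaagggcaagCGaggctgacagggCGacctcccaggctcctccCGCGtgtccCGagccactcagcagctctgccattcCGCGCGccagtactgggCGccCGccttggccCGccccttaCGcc
Slc25a17, chr15:81360813-81361015, minus strand: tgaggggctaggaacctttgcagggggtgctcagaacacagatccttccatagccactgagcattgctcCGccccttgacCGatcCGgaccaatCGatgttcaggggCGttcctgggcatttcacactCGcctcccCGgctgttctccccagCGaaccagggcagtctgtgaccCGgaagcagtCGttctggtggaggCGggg
For the citrate carrier gene Slc25a1 and the pyrimidine nucleotide carrier gene Slc25a36, the E-box is in capitals. They are shown as a low-level and a high-level carrier with this motif.
Slc25a1, chr16:17928220-17928469, minus strand: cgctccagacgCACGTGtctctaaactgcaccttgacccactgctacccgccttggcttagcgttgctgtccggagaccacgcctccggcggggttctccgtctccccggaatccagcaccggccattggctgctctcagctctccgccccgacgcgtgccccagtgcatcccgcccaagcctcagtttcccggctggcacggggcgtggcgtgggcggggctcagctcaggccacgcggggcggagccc
Slc25a36, chr9:97111158-97111291, minus strand: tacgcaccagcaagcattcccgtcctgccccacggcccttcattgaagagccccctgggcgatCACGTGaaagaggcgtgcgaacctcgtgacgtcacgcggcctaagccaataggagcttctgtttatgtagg
The stretch of Slc25a5 holds 14 CpG, that of Slc25a17 holds 11, that of Slc25a1 holds 25 and that of Slc25a36 holds 11. Over whole windows the median was 15 CpG in the 46 Slc25 windows and 7 in all 32851 windows of the table. The E-box CACGTG, which reads the same on both strands, was in 8 of the 46 windows (17.4%), from 7 genes, and in 7.15% of all windows. The ETS-type motif CCGGAAG, searched on both strands, was in 7 Slc25 windows (15.2%) and in 8.86% of all. The windows of the table come from 27025 genes, whether or not they were tested here. They were not matched to the family by expression or GC content. These matches describe letters in the windows and do not show binding.

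The controls had 12150508 and 34820446 counts in genes, and the KO libraries 36243182 and 33544428. Levels are in CPM, counts scaled to a common library size with TMM factors, and differences are log2 fold changes, KO over control, ± standard error from edgeR's quasi-likelihood test. Cxxc1, the targeted gene, had 111 and 53.5 CPM in the controls versus 35.7 and 39.4 in the KO libraries (-1.12 ± 0.34, adjusted p = 0.199), and the labels do not give the deleted exons. The DP markers Cd4 and Cd8a were present in all libraries but fell in the KO by 2.09 and 2.06 on the log2 scale (adjusted p of 0.0355 and 0.0442). The double-negative stage markers Il2ra and Il7r rose by 3.98 and 5.58 (adjusted p of 0.00616 and 0.0152). Other members of these lists did not share that direction: Cd44, a double-negative marker, was at -1.30 ± 0.32 (adjusted p = 0.124), Kit overlapped between genotypes, and Ptcra of the DP list was at 2.13 ± 0.55 (adjusted p = 0.138). In the DP list Rag2, Cd24a and Cd3e overlapped. Over 10 DP markers the summed level was 10496 and 13637 CPM in the controls and 5221 and 7745 in the KO libraries, and over 5 double-negative markers it was 44.2 and 48.9 CPM versus 268 and 141. Of the marker lists for B cells, myeloid cells, thymic epithelium, stroma, brown fat and muscle, natural killer cells and mature thymocytes, 0 genes were called, where 0.451% of all tested genes were. At an unadjusted p below 0.05 Epcam (2.11 ± 0.65), Pdgfrb (1.97 ± 0.51) and Itgam (0.90 ± 0.37) were higher, and Klrb1c (-2.61 ± 1.01) and Psmb11 (-5.29 ± 2.08) lower, in the KO. The part of these markers in the carrier values below was not tested. In bulk RNA, fewer cells of a type and less RNA per cell cannot be told apart.

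No Slc25 gene passed the test at an adjusted p below 0.05. Of the 47 members, 43 had enough counts to be tested, and 0 were called. Of the 20389 genes tested 0.451% were called, 0.27% higher and 0.181% lower in the KO. Slc25a17 had the smallest adjusted p, 0.242. At an unadjusted p below 0.05 there were 2 members, Slc25a17 higher and Slc25a18 lower in the KO, where 13.9% of all tested genes reached that level, 6.97% higher and 6.91% lower. DESeq2 also called 0 members, where it called 977 of the 20389 genes tested.

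The family's RNA as a whole was close between genotypes. Slc25 genes summed to 1256 and 1284 CPM in the controls and to 1379.5 and 1383 CPM in the KO libraries. Both KO sums thus lay above both control sums by a small amount. Abundant members weigh most in these sums. Slc25a5, the most abundant, had 195 and 199 CPM in the controls versus 273 and 248 in the KO libraries. Slc25a37, the next in CPM, was lower in both KO libraries. The median log2 fold change of the tested members was 0.16, and that of all tested genes was -0.04. A positive log2 fold change was found in 30 of 43 members, compared with 47.6% of all tested genes, and in 23 of 43 without control replicate 1. Both KO libraries lay above both controls in 10 members (23.3%), where 22.8% of all tested genes did so. They lay below both controls in 2 members (4.65%), Slc25a37 and Slc25a18, where 24% of all tested genes did so. These counts describe the family, and nothing is called particular to it from them.

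In the median over members, single libraries of one genotype differed from each other by more than the genotype means did. Each mean averages 2 libraries, which by itself lowers the difference between means, so no conclusion is drawn from this order. Over the 36 members with a mean of at least 5 CPM, the median absolute log2 difference was 0.42 between the controls, 0.38 between the KO libraries and 0.24 between genotype means. Over all tested genes of that level it was 0.33, 0.30 and 0.32. The 95% interval of the fold change stayed within 2-fold in both directions for 16 of 43 members, where 23.4% of all tested genes had such an interval. All 16 were among the 29 members of at least 10 CPM. For the other 27 tested members a 2-fold difference lay inside the interval at this depth and number of libraries.

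**Figure D1:**
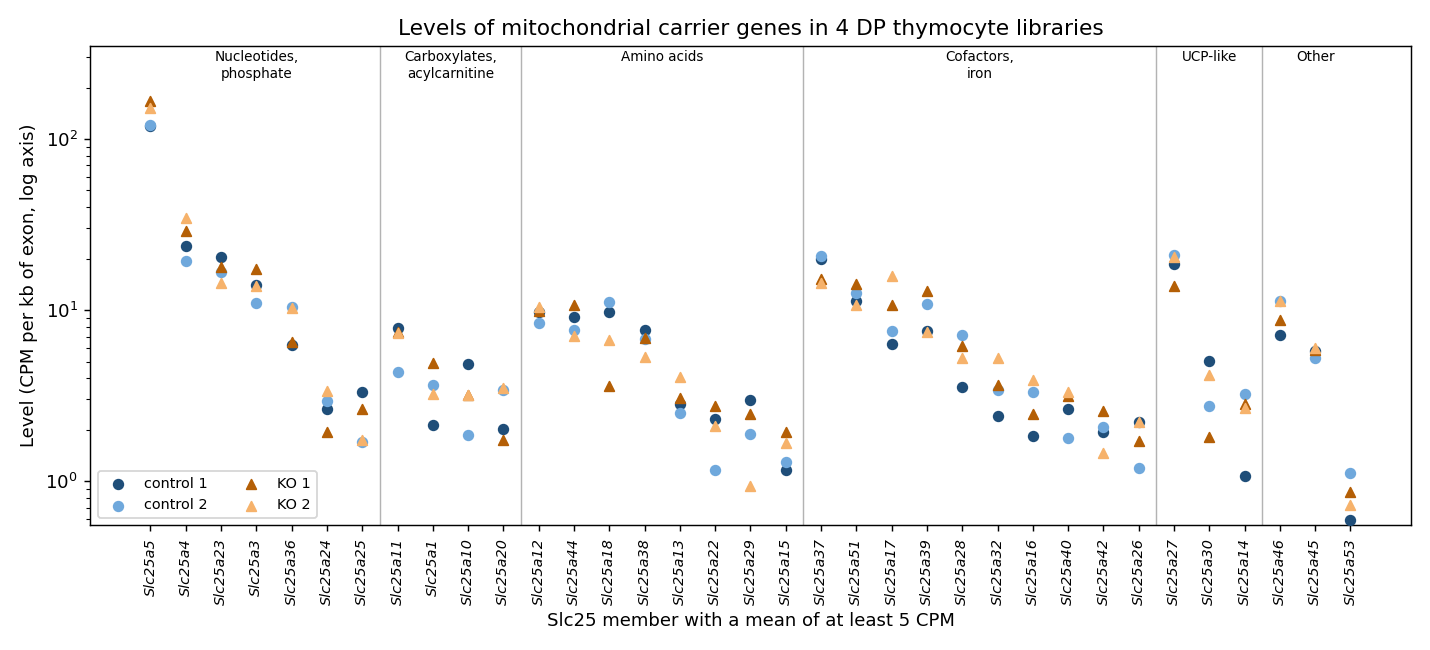
Level of the Slc25 members with a mean of at least 5 CPM, 1 of them not shown, in CPM per kilobase of exon on a log axis, grouped by what the carrier transports. Circles are the 2 control and triangles the 2 KO libraries. Slc25a5 stands far above all others in all 4 libraries, and most other members have control and KO points intermixed.

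Adenine nucleotide carriers exchange matrix ATP for cytosolic ADP, and they held the most abundant member. Slc25a5 (ANT2; chromosome X, 36795597 to 36798808), the form of proliferating cells, had 195 and 199 CPM in the controls versus 273 and 248 in the KO libraries. Both KO libraries were above both controls, with a difference of 0.40 ± 0.21 (adjusted p = 0.454) and a 95% interval of 0.945-fold to 1.85-fold. Slc25a4 (ANT1; chromosome 8, 46207168 to 46211062), the form prominent in muscle and heart, had 55.8 and 45.8 CPM in the controls versus 67.8 and 80.9 in the KO libraries. The groups did not overlap for Slc25a4 either (0.55 ± 0.25, adjusted p = 0.362). Slc25a31 (ANT4), a germ cell form, had 0 counts in every library, which allows at most 0.0843 to 0.252 CPM by a limit of 3 counts.

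Levels can be compared between genes only per length, here in CPM per kilobase of the union of GENCODE M21 exons. On that scale Slc25a5 had 119 and 121 in the controls and 166 and 151 in the KO libraries. It made up 33.1% of the family's per-kilobase sum in each control, and 39.5% and 36.6% in KO 1 and KO 2. Slc25a4 came second, at 23.7 and 19.5 in the controls and 28.8 and 34.4 in the KO libraries. The per-kilobase ratio of Slc25a5 to Slc25a4 was 5.01 and 6.23 in the controls and 5.76 and 4.39 in the KO libraries, so the ranges of the 2 genotypes overlapped. Both forms were thus higher in the KO libraries with no separation of their ratio.

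Phosphate and the other nucleotides have carriers of their own. Slc25a3 (chromosome 10, 91116574 to 91124046), which imports the phosphate used to make ATP, had 77.4 and 61.1 CPM in the controls versus 96.8 and 76.4 in the KO libraries. KO 2 lay between the 2 controls (0.32 ± 0.25, adjusted p = 0.631). Slc25a23, a calcium-regulated carrier of ATP-Mg and phosphate, had 108 and 88.4 CPM in the controls versus 94.5 and 76.4 in the KO libraries (-0.20 ± 0.24). Its relatives Slc25a24 and Slc25a25 were lower per kilobase, with Slc25a23 at 4.30 to 9.20 times Slc25a24 and 6.17 to 9.92 times Slc25a25 over the 4 libraries.

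The pyrimidine nucleotide carriers differed between replicates, and in Slc25a33 a single library set the value. Slc25a36 had 60.1 and 99.4 CPM in the controls versus 62.6 and 98.8 in the KO libraries (0.01 ± 0.32), so the replicates differed and the genotypes did not separate. Slc25a33, another pyrimidine nucleotide carrier gene, had 0 counts in control 1, 3.12 CPM in control 2 and 3.24 and 2.39 CPM in the KO libraries (0.80 ± 1.39). Without control replicate 1 the log2 fold change of Slc25a33 was -0.13. Of 9 tested nucleotide and phosphate carriers, 0 passed the test, and 6 had a positive log2 fold change.

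**Figure D2:**
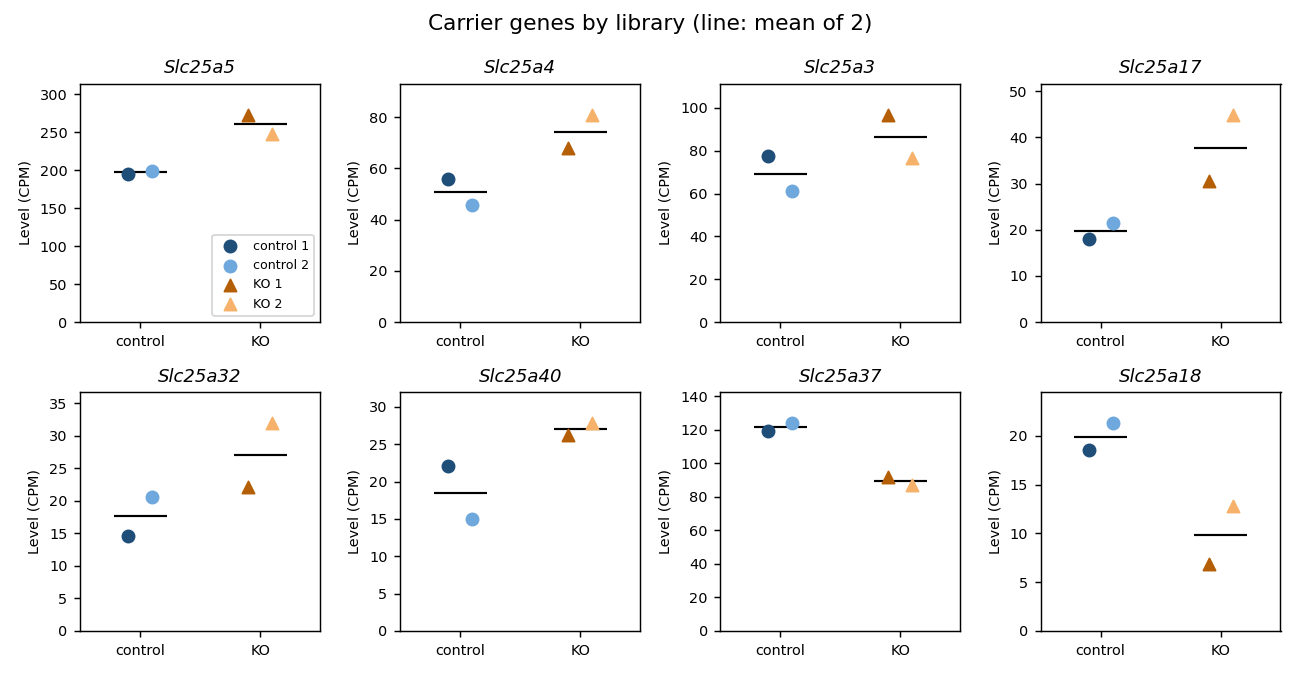
Levels in CPM of 8 Slc25 members in each library, with the axis starting at 0. Points are libraries and the line is the mean of the 2 libraries of a genotype. The 8 shown are those with the smallest unadjusted p. In Slc25a5, Slc25a4, Slc25a17, Slc25a32 and Slc25a40 both KO points lie above both control points. In Slc25a37 and Slc25a18 both lie below, and in Slc25a3 the genotypes overlap. Of all 43 tested members, 10 lay above and 2 below in this way, where 22.8% and 24% of all tested genes did so.

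Cofactor carriers included the member with the largest positive difference. Slc25a17 (chromosome 15, 81318921 to 81360765), which carries coenzyme A and related nucleotides across the peroxisomal rather than the mitochondrial membrane, had 17.9 and 21.4 CPM in the controls versus 30.5 and 44.9 in the KO libraries. The 2 KO libraries were both above the controls but differed between themselves. Its fold change was 1.91, with a 95% interval of 1.16-fold to 3.15-fold (0.94 ± 0.32, adjusted p = 0.242). With the replicate number as a block it passed the test (0.92, adjusted p = 0.0301), although nothing in the labels pairs the libraries.

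Slc25a32 (chromosome 15, 39091230 to 39112720) brings folate into the matrix, where one-carbon units are made. It had 14.6 and 20.7 CPM in the controls versus 22.2 and 31.9 in the KO libraries. The highest control and the lowest KO value were close (0.61 ± 0.35, adjusted p = 0.484). Slc25a26, which imports S-adenosylmethionine, the methyl donor of matrix methylation, had 10.7 and 5.74 CPM in the controls versus 8.24 and 10.6 in the KO libraries, with overlapping genotypes (0.21 ± 0.48). The NAD+ carrier gene Slc25a51 (chromosome 4, 45395923 to 45408917) had 62.5 and 69.2 CPM in the controls versus 77.7 and 58.6 in the KO libraries. Both controls of Slc25a51 lay between the KO values (0.05 ± 0.25, 95% interval of 0.706-fold to 1.52-fold).

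Iron enters the matrix through the mitoferrins, for heme and iron-sulphur cluster synthesis. Slc25a37 (mitoferrin 1; chromosome 14, 69241848 to 69285544), the form on which red cell precursors depend, was the second most abundant member in CPM. It had 119 and 124 CPM in the controls versus 92.0 and 87.0 in the KO libraries. Replicates were tight and the genotypes did not overlap, with a difference of -0.44 ± 0.22 (adjusted p = 0.408) and a 95% interval of 0.525-fold to 1.03-fold. Slc25a28 (mitoferrin 2), the form of most other tissues, had 13.4 and 26.9 CPM in the controls versus 23.1 and 19.6 in the KO libraries (0.08 ± 0.39). Per kilobase, mitoferrin 1 was 5.56 and 2.87 times mitoferrin 2 in the controls and 2.48 and 2.77 times in the KO libraries.

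Markers of red cell precursors, which depend on mitoferrin 1, were read in the same libraries. Summed over 9 erythroid markers, the level was 11.3 and 16.3 CPM in the controls versus 39.2 and 27.3 in the KO libraries. The globin genes Hba-a1, Hba-a2, Hbb-bs and Hbb-bt were at 0 counts in both controls, and Hba-a1 alone passed the test, with 14.6 and 6.49 CPM in the KO libraries. Other markers of this list went the other way. Slc4a1 had 1.68 and 0.837 CPM in the controls versus 0.201 and 0.253 in the KO libraries (-2.44 ± 1.58). Klf1 had 0.757 and 1.30 CPM in the controls versus 0.689 and 0.506 in the KO libraries (-0.79 ± 1.41). The part of red cell precursors in the Slc25a37 value was not tested. Alas2, the red cell heme synthesis enzyme, had 8.24 and 14.0 CPM in the controls versus 11.5 and 15.7 in the KO libraries. Slc25a38, the glycine carrier that feeds heme synthesis, had 20.9 and 18.7 CPM in the controls versus 18.7 and 14.7 in the KO libraries (-0.24 ± 0.33).

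The glutathione carriers Slc25a39 and Slc25a40 are close relatives. Slc25a40 had 22 and 15 CPM in the controls versus 26.3 and 27.8 in the KO libraries, both above the controls (0.55 ± 0.33, adjusted p = 0.510). Slc25a39 had 20.8 and 29.7 CPM in the controls versus 35.4 and 20.5 in the KO libraries, with no separation (0.14 ± 0.36). Of 11 tested cofactor, glutathione and iron carriers, 0 passed the test and 10 had a positive log2 fold change, with Slc25a37 the exception. Over all tested genes 47.6% had a positive log2 fold change. Under edgeR's newer quasi-likelihood setting Slc25a28, and at a minimum mean of 5 CPM Slc25a51, were also below 0. Slc25a26, Slc25a28, Slc25a39 and Slc25a51 were each below 0 in some fits that left out a single library.

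Amino acid carriers held the largest negative difference among members above 5 CPM. Slc25a18 (chromosome 6, 120773504 to 120794169), a glutamate carrier best known from brain, had 18.6 and 21.3 CPM in the controls versus 6.83 and 12.8 in the KO libraries. Both KO values were below both controls (-1.02 ± 0.41, adjusted p = 0.316), and the fold change was 0.493 with a 95% interval of 0.260 to 0.936. Without KO replicate 1 the log2 fold change of Slc25a18 was -0.58 (adjusted p = 0.911), and without KO replicate 2 it was -1.53. The other glutamate carrier gene, Slc25a22, had 13.8 and 6.92 CPM in the controls versus 16.4 and 12.6 in the KO libraries (0.50 ± 0.45). Without control replicate 1 the log2 fold change of Slc25a22 was 1.08, and without control replicate 2 it was 0.083. Per kilobase the ratio of Slc25a22 to Slc25a18 was 0.237 and 0.104 in the controls and 0.766 and 0.313 in the KO libraries. On that scale Slc25a18 was the more abundant glutamate carrier RNA in all 4 libraries, and both KO ratios were above both control ratios. In CPM, without length, Slc25a22 was the higher in KO 1 (16.4 against 6.83) and close to Slc25a18 in KO 2 (12.6 against 12.8). The order in the KO libraries thus depends on the exon lengths used.

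Aspartate leaves the matrix through aralar and citrin, which serve the malate-aspartate shuttle. Slc25a12 (aralar; chromosome 2, 71274270 to 71367781) had 71.0 and 61.7 CPM in the controls versus 72.6 and 76 in the KO libraries (0.16 ± 0.23, 95% interval of 0.785-fold to 1.60-fold). Slc25a13 (citrin), the liver form, had 10.8 and 9.49 CPM in the controls versus 11.6 and 15.4 in the KO libraries (0.42 ± 0.39). Aralar was the dominant form, at 3.4 and 3.4 times citrin per kilobase in the controls and 3.23 and 2.55 times in the KO libraries. Slc25a15, the ornithine carrier of the urea cycle and polyamine routes, had 6.56 and 7.27 CPM in the controls versus 10.9 and 9.38 in the KO libraries (0.55 ± 0.43, adjusted p = 0.641). Of 9 tested amino acid carriers, 0 passed the test, and 4 had both KO libraries above both controls, Slc25a12, Slc25a13, Slc25a15 and Slc25a2, the last under 1 CPM in every library, where 22.8% of all tested genes did so.

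Carboxylate and acylcarnitine carriers were lowly to moderately expressed and did not separate the genotypes. Slc25a1, which exports citrate for cytosolic acetyl-CoA, had 4.62 and 7.93 CPM in the controls versus 10.6 and 7.02 in the KO libraries (0.48 ± 0.50). Slc25a11, the oxoglutarate/malate carrier, had 16.6 and 9.26 CPM in the controls versus 15.7 and 15.5 in the KO libraries (0.28 ± 0.40). Slc25a10, the dicarboxylate carrier, had 16.7 and 6.40 CPM in the controls and 11 CPM in each KO library (-0.07 ± 0.50). In this gene the controls spanned the KO values, and without control replicate 1 the log2 fold change of Slc25a10 was 0.79. Slc25a20, which moves acylcarnitines inwards for fatty acid oxidation, had 9.75 and 16.6 CPM in the controls versus 8.47 and 17 in the KO libraries (-0.05 ± 0.47). Slc25a21, the 2-oxoadipate carrier, was under the test's count filter.

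Uncoupling protein-like carriers included a gene best known from brain at a high level. Slc25a27 (UCP4; chromosome 17, 43637739 to 43667214) had 73 and 82.8 CPM in the controls versus 54.7 and 80.3 in the KO libraries. KO 1 alone stood low, and the genotypes overlapped (-0.21 ± 0.26, 95% interval of 0.578-fold to 1.30-fold). Per kilobase Slc25a27 ranked 3 in the family, at 18.5 and 21.0 in the controls and 13.9 and 20.4 in the KO libraries. Its exons overlap no other annotated exon, and those of Slc25a18 overlap another gene, Atp6v1e1 on the opposite strand, over 1.67% of their bases. Slc25a14 and Slc25a30, the other UCP-like members, had overlapping genotypes (0.34 ± 0.62 and -0.36 ± 0.48). Brown fat and muscle markers were near 0, with the 6 of them summing to between 1.99 and 4.15 CPM.

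Among the remaining members, Slc25a46, an outer membrane protein that acts in mitochondrial fusion and fission, had 39 and 61.2 CPM in the controls versus 47.4 and 61.4 in the KO libraries (0.12 ± 0.30). The 4 members under the count filter were Slc25a21, Slc25a31, Slc25a48 and Slc25a54, each at 1.01 CPM or less in every library. Slc25a54 and Slc25a48 had counts only in control 1, at 0.841 and 0.252 CPM, the latter on a count of 3. The other 16 tested members, Slc25a2, Slc25a14, Slc25a16, Slc25a24, Slc25a25, Slc25a29, Slc25a30, Slc25a34, Slc25a35, Slc25a41, Slc25a42, Slc25a43, Slc25a44, Slc25a45, Slc25a47 and Slc25a53, had log2 fold changes from -1.73 (Slc25a34) to 0.48 (Slc25a2). Slc25a34, at 2.02 and 0 CPM in the controls, had a standard error of 2.26. In Slc25a35, 31.3% of exon bases overlap Rangrf on the opposite strand, so with the strand setting unknown its counts (1.7 to 3.4 CPM) are uncertain. The overlap was 14.9% of exon bases in Slc25a33 (with Gm13068), 8.92% in Slc25a11 (with Rnf167), 7.06% in Slc25a46 (with B930094E09Rik), 6.60% in Slc25a10 (with Gm11788) and 6.33% in Slc25a37 (with Gm31748), all on the opposite strand.

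**Figure D3:**
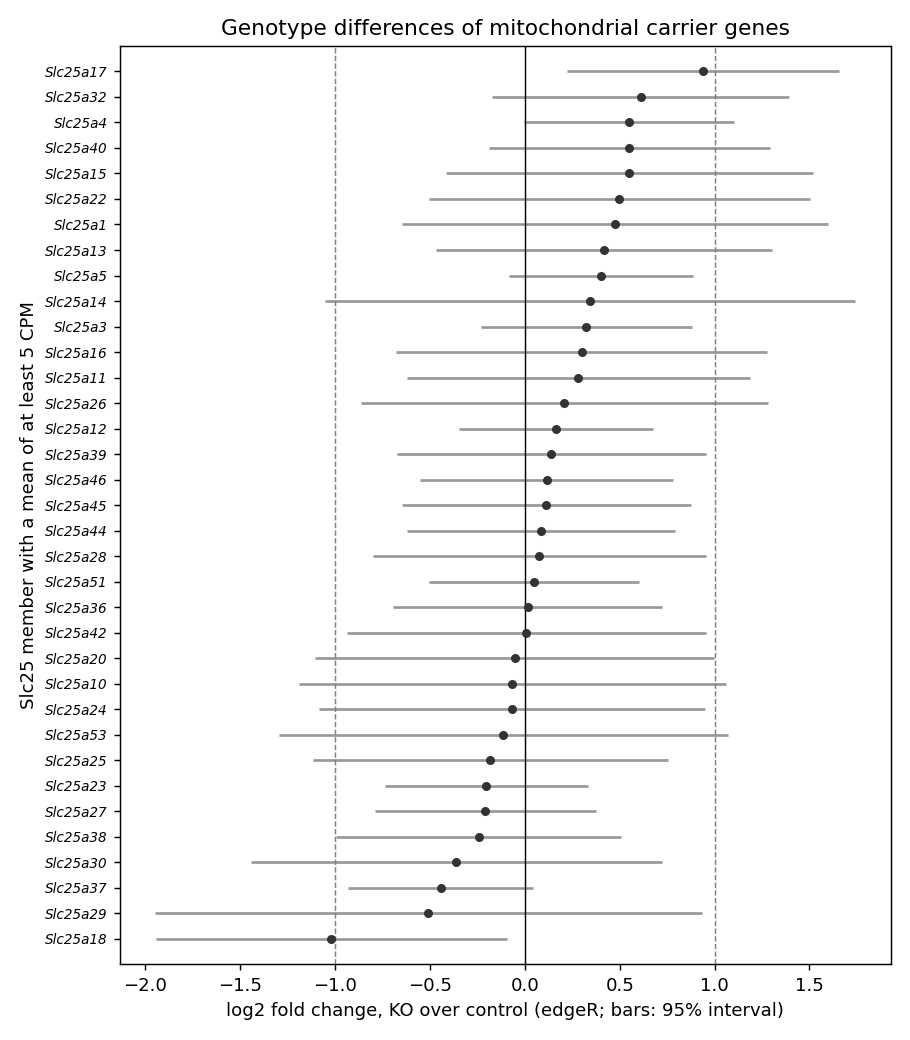
Log2 fold change, KO over control, of the Slc25 members with a mean of at least 5 CPM, 1 of them not shown; bars are 95% intervals from edgeR's quasi-likelihood fit and dashed lines mark 2-fold. The intervals of Slc25a17 and Slc25a18 exclude 0 before adjustment, and those of abundant members such as Slc25a5, Slc25a12 and Slc25a51 stay inside the dashed lines.

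Promoter letters were set beside these differences as a description. The 7 genes with a CACGTG window were Slc25a1, Slc25a13, Slc25a14, Slc25a15, Slc25a31, Slc25a33 and Slc25a36. Slc25a31 had 0 counts in every library. The log2 fold changes of the others were 0.48, 0.42, 0.34, 0.55, 0.80 and 0.01 in the order Slc25a1, Slc25a13, Slc25a14, Slc25a15, Slc25a33 and Slc25a36. None passed the test, and 30 of all 43 tested members were positive. Without control replicate 1 the log2 fold change of Slc25a33 was -0.13. Myc RNA had 21.9 and 13 CPM in the controls versus 201 and 109 in the KO libraries (3.16 ± 0.38, adjusted p = 0.0156). Whether Myc bears on these carriers was not tested. The whole window of Slc25a17 holds 15 CpG and that of Slc25a18 holds 4, and 31.4% of all windows hold fewer than 4.

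Genes that work beside the carriers were read from lists chosen by function. None of their 94 tested members passed the test, where 0.451% of all tested genes did. Of the carrier family genes with other symbols, Ucp2, which limits mitochondrial oxidation of glucose-derived carbon, had 343 and 421 CPM in the controls versus 559.7 and 503 in the KO libraries (0.48 ± 0.23, adjusted p = 0.403). Ucp3, a muscle uncoupling protein gene, had 0.841 and 0.519 CPM in the controls versus 4.10 and 3.15 in the KO libraries (2.43 ± 0.93, adjusted p = 0.294). Both KO libraries were above both controls in each, as in 22.8% of all tested genes. Ucp1 of the same list was lower, at 1.51 and 0.664 CPM in the controls versus 0 and 0.393 in the KO libraries (-2.43 ± 2.05). The other 2 genes of the list had overlapping genotypes.

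The import route that inserts carriers into the inner membrane had a list median of 0.45 over 15 tested genes. Of these, 13 had a positive log2 fold change, where 47.6% of all tested genes did. The list summed to 447 and 477 CPM in the controls versus 747 in KO 1 and 526 in KO 2, so the rise was larger in KO 1. Timm9, a small chaperone that escorts carriers across the intermembrane space, had 4.62 and 5.74 CPM in the controls versus 14.2 and 11.1 in the KO libraries (1.28 ± 0.44, adjusted p = 0.246). The outer membrane channel genes Vdac1, Vdac2 and Vdac3 all had both KO libraries above both controls, as had 22.8% of all tested genes, and Vdac3 had the largest difference (0.76 ± 0.28, adjusted p = 0.27). Other inner membrane transport genes had a median of 0.19 over 18 tested genes. Abcb8, a subunit gene of a mitochondrial potassium channel, had 13.8 and 8.74 CPM in the controls versus 22.3 and 19.8 in the KO libraries (0.91 ± 0.37, adjusted p = 0.325). The calcium uniporter gene Mcu was lower, at 36.1 and 46.2 CPM in the controls versus 22.3 and 29.2 in the KO libraries (-0.68 ± 0.29, adjusted p = 0.351).

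Enzymes that use what the carriers move were read in the same way. The tricarboxylic acid cycle list had a median of 0.32 over 22 tested genes, 19 of them positive, where 47.6% of all tested genes were. Its smallest adjusted p was that of Suclg2, a succinyl-CoA ligase subunit gene. Suclg2 was at 12.2 and 13.8 CPM in the controls versus 58.0 and 33.7 in the KO libraries (1.82 ± 0.35, adjusted p = 0.0689). Got2, the matrix aspartate aminotransferase that works with aralar, had 61.0 and 41.7 CPM in the controls versus 131 and 75.4 in the KO libraries (1.01 ± 0.32, adjusted p = 0.214). Shmt2, which makes one-carbon units in the matrix from the folate that Slc25a32 supplies, had 51.7 and 45 CPM in the controls versus 126 and 66.7 in the KO libraries (1.00 ± 0.31, adjusted p = 0.214). Of 9 matrix one-carbon and folate enzyme genes 6 had a positive log2 fold change, as had 6 of 10 genes for the shuttle partners of the aspartate and citrate carriers. The mitochondrial biogenesis regulators had a median of 0.08 over 12 tested genes, and Pprc1 was high in KO 1 alone, at 164 CPM against 49.0 to 51.1 CPM in the other libraries. The carriers' own median of 0.16 was below those of the import, tricarboxylic acid cycle and one-carbon lists, a difference that was not tested.

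**Figure D4:**
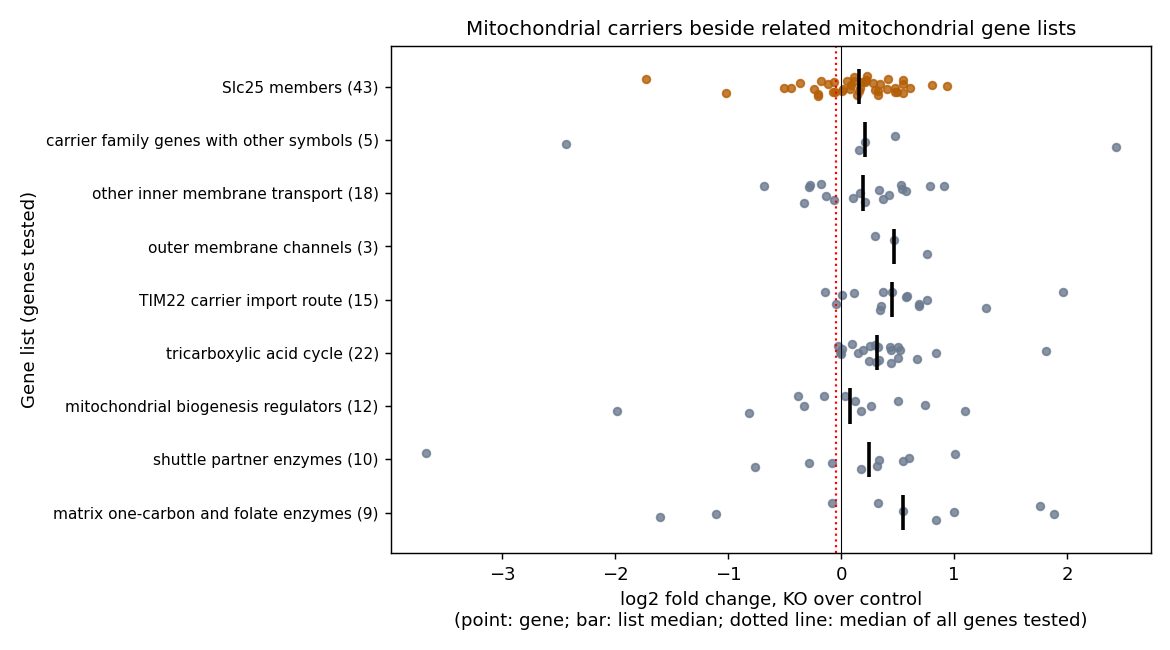
Log2 fold changes, KO over control, of the 43 tested Slc25 members and of genes in related mitochondrial lists. Points are genes, bars are list medians and the dotted line is the median of all tested genes, -0.04; the Slc25 median is 0.16, and the highest list median is 0.55, for matrix one-carbon and folate enzymes.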

How the data were processed

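Bulk RNA-seq counts of 4 DP thymocyte libraries were used, grouped by sample title. Libraries were built from total RNA with a SMART-seq kit, per the labels' protocols. Values are raw counts of reads per gene, as the authors deposited them, from a HISAT2 alignment per the file headers. Per the submitters' processing notes, the tools were featureCounts 2.0.8, HISAT2 2.2.1, edgeR 3.36.0 and cutadapt 4.0, and the build mm10. The sources used here do not give the annotation or how strand and multi-mapped reads were handled. Molecular identifiers are not mentioned, so limits from counts cover counting error only, and control 1 is the shallowest library. No library was counted as a duplicate of another, since the lowest chi-square divided by its degrees of freedom between any pair was 51.9.

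The test was edgeR 4.0.16 in R 4.3.3, with filterByExpr (minimum count 10, minimum total 15), TMM, and a quasi-likelihood test with genotype as the only term, adjusted over 20389 genes by Benjamini and Hochberg's method and called below 0.05. Standard errors are the log2 fold change divided by the square root of F, and 95% intervals use the moderated degrees of freedom (median 9.19). The biological coefficient of variation was 57.4%. DESeq2 1.42.0, other scalings and filters, a replicate block and leaving out each library were alternatives. The test was checked on simulated counts. Gene spans follow RefSeq for GRCm38.p6, of which mm10 is the browser name, and exon lengths are from GENCODE M21 on the same assembly, which may differ from the annotation counted. Overlaps with other exons were read from GENCODE M21.

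The members and lists were chosen with earlier results of these data known. Members named with all values were every called member, the 10 with the smallest p, the 10 with the highest CPM and 24 set by function, 28 in all, of which 1 is counted with the family but not reported singly here. From related lists, 1 to 3 genes among the 3 with the smallest unadjusted p were named. Markers named beside those called were chosen after their values were seen. Ratios between related carriers, the promoter motifs and Myc were chosen after the files were seen.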

Additional observations from a re-analysis of the deposited data

How the results depend on the processing

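The count of Slc25 members called was 0 with RLE size factors, library totals only, DESeq2, edgeR's newer quasi-likelihood setting, no low-count filter and a minimum mean of 5 CPM, and 0 to 1 when each library was left out. The one was Slc25a33, without control replicate 2, where the remaining control had 0 counts. The count over all genes was 92, and 977 with DESeq2, 920 without a low-count filter, 231 at a minimum mean of 5 CPM and 223 to 864 when each library was left out. The family median of 0.16 was 0.043 at a minimum mean of 5 CPM, where 36 members were tested, and 0.14 to 0.23 when each library was left out. With the replicate number as a block, 1599 genes and 1 member, Slc25a17, were called. The difference between the controls and that between the KO libraries, each replicate 1 against 2, correlated at r = 0.07 over 20389 genes, which are not independent. Genes of low count enter this value with equal weight and can lower it, so it does not decide whether same-numbered libraries pair. The labels do not pair them, and with 2 pairs the numbers are not taken as pairing.

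Some named members changed sign in some settings, most of them members with small differences but also Slc25a33, and the cause was not tested. Slc25a36 was at -0.0078 with RLE size factors, -0.0073 with DESeq2, -0.0055 with the newer quasi-likelihood setting and -0.051 at a minimum mean of 5 CPM. Slc25a51 was at -0.027 at that minimum. Slc25a10 was at 0.11 and Slc25a28 at -0.00023 with the newer setting, and Slc25a10 at 0.083 with the replicate block. When each library was left out, the ranges were -0.60 to 0.79 for Slc25a10, -0.077 to 0.77 for Slc25a11, -0.62 to 0.42 for Slc25a20, -0.17 to 0.73 for Slc25a26, -0.49 to 0.094 for Slc25a27, -0.32 to 0.68 for Slc25a28, -0.13 to 9.28 for Slc25a33, -0.33 to 0.43 for Slc25a36, -0.26 to 0.50 for Slc25a39, -0.16 to 0.49 for Slc25a46 and -0.12 to 0.26 for Slc25a51. Slc25a17, Slc25a18, Slc25a4, Slc25a5, Slc25a37, Slc25a32 and Slc25a40 kept their direction in every setting run. So did Slc25a1, Slc25a3, Slc25a12, Slc25a13, Slc25a15, Slc25a22, Slc25a23 and Slc25a38, so a kept direction was not particular to the members with the smallest p. When each library was left out the values ran from 0.65 to 1.24 for Slc25a17, -1.53 to -0.58 for Slc25a18, 0.34 to 0.90 for Slc25a32 and 0.30 to 0.86 for Slc25a40. Depth in control 1 limits members under about 1 CPM.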
